A study of Homo sapiens with 6 samples.

Results

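Aminoacyl-tRNA synthetases are the enzymes that attach each amino acid to its own transfer RNA. The genes described here are 39 of 38170 annotated features, chosen because their description names a tRNA synthetase, with 9 pseudogene entries and antisense entries left out. They comprise 20 cytosolic enzymes, 16 mitochondrial enzymes and 3 accessory entries, AIMP1, AIMP2 and AARSD1. All 39 passed the low-count filter, as did 19620 features in all.

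The libraries came from total RNA of A549, an adenocarcinoma line of human lung, grown in DMEM with fetal bovine serum. The vector group (3 libraries) carried an empty vector, and the LOC401312 group (3 libraries) overexpressed LOC401312, a long non-coding RNA, from the piggyBac transposon system, which inserts DNA into the genome. The title of the series ties LOC401312 to radiosensitivity, and the labels give no irradiation, time or clone. For LOC401312 replicates 2 and 3 the genotype field reads LOC401313 and LOC401314, unlike their titles, so results are also given without both. Whether libraries came from separate cultures is not given. A p-value here thus sets the group difference only against the spread between libraries, and that spread may be technical.

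Library totals ran from 60971105 to 73994619 counts. The STEAP1B entry, which contains the LOC401312 transcript, had 9, 11 and 23 counts with vector and 94628, 92527 and 90297 with LOC401312, so the 2 replicates with other labels were as high as replicate 1. Markers of A549 and lung epithelium summed to 15300 to 16300 CPM (counts scaled to a common library total) in vector. In LOC401312 they summed to 14500 to 15100, so every LOC401312 library was lower. Of 5 marker lists of other cells, 3 moved with the groups: urothelial markers summed to 11.1 to 15.1 CPM in vector and 3.01 to 7.19 in LOC401312, fibroblast markers to 39.4 to 69.1 and 23.1 to 26.2. Placental markers reached 85.9 and 50.2 CPM in LOC401312 replicates 2 and 3 against 1.87 in replicate 1 and at most 1.42 in vector. Haematopoietic markers (11.5 to 33.6 CPM in vector, 11.6 to 14.1 in LOC401312) and endothelial markers (1.61 to 1.82 and 1.06 to 2.40) overlapped. The part of these lists in the results was not tested. In bulk RNA, fewer cells of a type and less RNA per cell cannot be told apart.

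A synthetase first activates its amino acid with ATP and then joins it to the tRNA, and 2 unrelated folds, class I and class II, share the work. Most amino acids have a separate cytosolic and mitochondrial enzyme, both encoded in the nucleus, while KARS1 and GARS1 each encode both forms and were counted here as cytosolic. Several cytosolic enzymes assemble with the scaffold proteins AIMP1, AIMP2 and EEF1E1 into the multi-synthetase complex. When tRNAs go uncharged, the kinase EIF2AK4 (GCN2) raises translation of the transcription factor ATF4, which is known to activate many cytosolic synthetase genes through a composite C/EBP-ATF element.

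The promoters that hold a match to that element are shown because most of them belong to cytosolic enzymes. The motif searched was TGATGNAAN, on both strands, in the window from 250 bases before to 50 after each RefSeq transcription start in GRCh38.p14. A window was found for 33 members, and AARS2, LARS1, TARS3, VARS1, VARS2 and YARS1 had none in the table used. The 9 bases of each match are in capitals, with 10 bases on either side, and each line reads 5′ to 3′ on the strand of the gene.
TARS1: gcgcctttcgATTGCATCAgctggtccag
GARS1: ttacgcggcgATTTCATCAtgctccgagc
IARS1: ttttcagcgcGTTGCATCAcctccgtgcg
CARS1: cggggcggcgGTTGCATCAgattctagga
MARS1: gccggttccgGTTGCATCAgcgagggatt
AARS1: ttttctcgcaGTTGCATCAgccaagttag
NARS1: ctacgctctcTGATGCAACgccggaatcg
YARS2: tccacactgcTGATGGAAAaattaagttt

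The windows lie at chr5:33440956-33440984 (TARS1, plus strand), chr7:30594834-30594862 (GARS1, plus), chr9:92293693-92293721 (IARS1, minus), chr11:3057408-3057436 (CARS1, minus), chr12:57488053-57488081 (MARS1, plus), chr16:70289676-70289704 (AARS1, minus), chr18:57621804-57621832 (NARS1, minus) and chr12:32756076-32756104 (YARS2, minus). Of the cytosolic genes with a window, 7 of 16 (43.8%) held the motif, and of the mitochondrial genes 1 of 14 (7.14%), YARS2. None of the 3 accessory entries held it. Among all genes with a RefSeq window the share was 4.45% (1215 of 27305), and among all windows it was 3.61% (1268 of 35116). In 6 of the 8 windows, the TARS1, GARS1, IARS1, CARS1, MARS1 and AARS1 ones, the motif ran against the strand of the gene. A match describes the letters of the window and is not a mapped binding site.

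The transcript levels of the family spanned a wide range, and the cytosolic enzymes mostly stood above their mitochondrial counterparts. Levels between genes were compared as CPM per kb of the longest coding transcript in GENCODE v29, in vector. AARS1, the alanine enzyme, was highest at 106.5 ± 3.32 CPM per kb (SD, n = 3), followed by IARS1 (isoleucine) at 89.0 ± 3.08 and KARS1 (lysine) at 87.6 ± 0.842. MARS1 (methionine, 72.4), NARS1 (asparagine, 72.1), RARS1 (arginine, 71.3) and the mitochondrial IARS2 (70.0) followed, and their vector libraries overlapped from each to the next. The lowest were VARS2 (4.26), WARS2 (3.59), PARS2 (3.31) and TARS3 (2.60), the last a second cytosolic gene for threonine. The VARS2 level leaves out AL669830, an entry of the same strand and 3′ end described below (8.95 CPM in vector, against 17.4 for VARS2). The median was 44.5 CPM per kb (2.60 to 106) over the cytosolic enzymes and 11.7 (3.31 to 70.0) over the mitochondrial ones. Along the whole order, 22 of the 38 neighbouring pairs overlapped between their vector libraries.

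**Figure D1:**
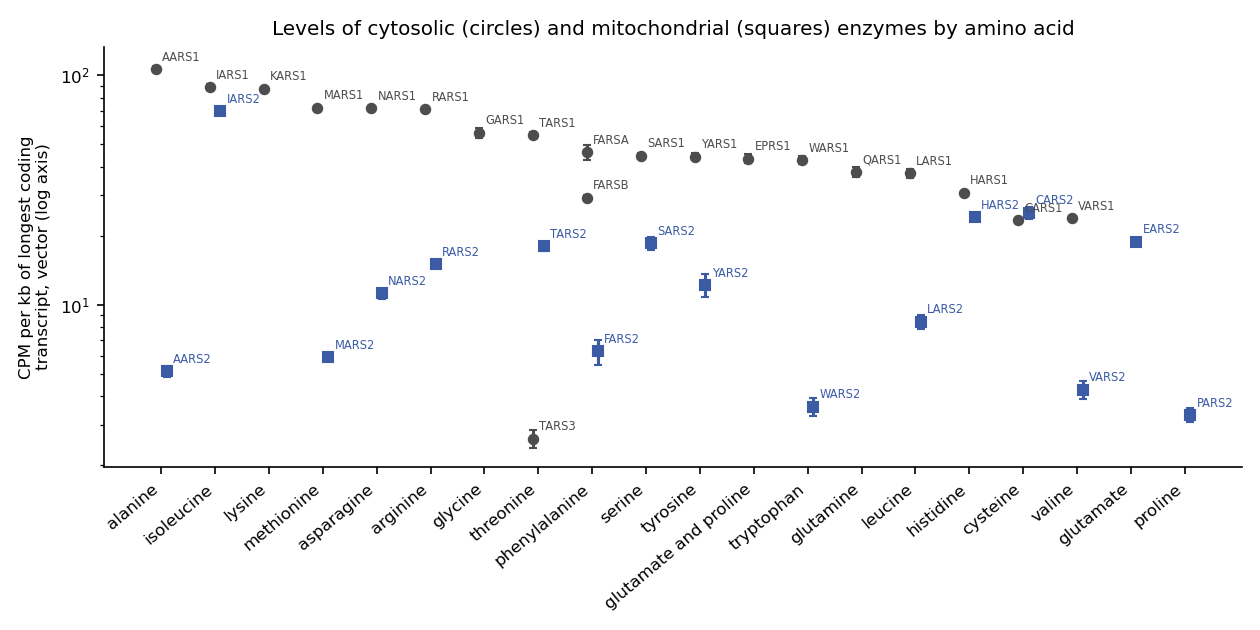
Level of each cytosolic (circles) and mitochondrial (squares) enzyme in the vector libraries, in CPM per kb of the longest coding transcript on a log axis, by amino acid; points are means and bars SD over 3 libraries. The cytosolic enzyme was higher in 14 of 16 pairs, and CARS1 and TARS3 lay below their mitochondrial partners.

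Paired by amino acid, the cytosolic enzyme was higher in 14 of 16 pairs, with a median ratio of 4.55. FARS2 and TARS2 each enter with both of their cytosolic counterparts, so the pairs hold 14 mitochondrial genes. Pairs were made by gene name, so EPRS1 (43.4 CPM per kb) was not set against EARS2 (18.9) or PARS2 (3.31). The ratio was greatest for alanine, where AARS1 stood 20.7 times above AARS2, and MARS1 stood 12.3 times above MARS2. The other two pairs ran the other way: CARS1 at 23.4 against CARS2 at 25.2 CPM per kb, and TARS3 against TARS2 at a ratio of 0.145. The deposited FPKM (fragment counts scaled for length and library size) ordered the family differently in places, with IARS2 at 48.4, IARS1 at 45.0 and TARS1 at 44.7 FPKM at the top. The length implied by the deposited FPKM was 1.22 to 8.15 times that of the longest coding transcript. GARS1, where the ratio was 8.15, ranked 8 by CPM per kb and 26 by FPKM. By FPKM the cytosolic enzyme was higher in 13 of 16 pairs, and the pairs that ran the other way were partly others. CARS1 stood above CARS2 on that scale, at a ratio of 1.42, while HARS1 and IARS1 lay below their partners at 0.469 and 0.929, and TARS3 stayed below TARS2. The ratio of AARS1 to AARS2 was 9.57 by FPKM, and the greatest was that of FARSA to FARS2, at 17.9.

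The main comparison asked which synthetase transcripts differed between LOC401312 and vector. Few did: 2 of 39 members (5.13%) passed the edgeR quasi-likelihood test at an adjusted p of 0.05, against 8.72% of all tested features. Both were lower in LOC401312, where 4.58% of all features were called lower and 4.13% higher. They were FARSB among the 20 cytosolic enzymes and VARS2 among the 16 mitochondrial enzymes. No member was called higher, and the share called did not exceed that of all features. By unadjusted p under 0.05, 7 members were lower and 1 higher, with shares of 11.4% and 11.2% over all features. Without LOC401312 replicates 2 and 3, neither passed in edgeR, with log2 changes of -0.36 for FARSB (adjusted p = 0.0885) and -0.50 for VARS2 (0.219), close to those of all libraries (-0.34 and -0.52). In that fit the remaining LOC401312 library is assumed to vary as the vector libraries do.

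Over all cytosolic enzymes, FARSB included, small negative values prevailed. Their median log2 change was -0.04, with 14 of 20 negative, beside -0.0064 with 9 of 16 negative for the mitochondrial enzymes and a median of -0.00066 with 50.1% negative over all features. Summed over the 20 cytosolic enzymes, the libraries held 3322, 3347 and 3262 CPM in vector and 3161, 3194 and 3162 in LOC401312. Every LOC401312 library lay below every vector library, and the mean was 4.17% lower (3310 ± 43.9 against 3172 ± 18.9, SD, n = 3 each). The 16 mitochondrial enzymes summed to 721.6, 731.0 and 719.1 CPM with vector and 714.2, 732.5 and 717.2 with LOC401312, with overlap. Over the 6137 features whose FPKM averaged 5 or more, the median log2 change in the deposited FPKM was 0.109, where the same features had -0.0157 in edgeR. On that scale the class medians were positive, 0.084 for the cytosolic enzymes, below that shift, and 0.108 for the mitochondrial ones, level with it. In limma on log2(FPKM + 0.1), 1 member was lower (FARSB) and 1 higher (AIMP2). On that scale 1.57% of all features were lower, 8.35% higher and 9.92% called in either direction. With each library centred, 2 members were lower (FARSB and VARS2) and none higher, where 6.1% of all features were called.

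Counting libraries without a test, 9 members (23.1%) had every LOC401312 library below every vector library, against 13.9% of all features. Only 2 (5.13%), AIMP2 and LARS2, had every library above, against 14.0%. The 9 were FARSB, IARS1, AARS1, RARS1, SARS1 and TARS1 of the cytosol and VARS2, MARS2 and TARS2 of the mitochondrion. Of these, 3 lie on chromosomes 2 and 9, whose genes as a whole were lower in LOC401312.

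**Figure D2:**
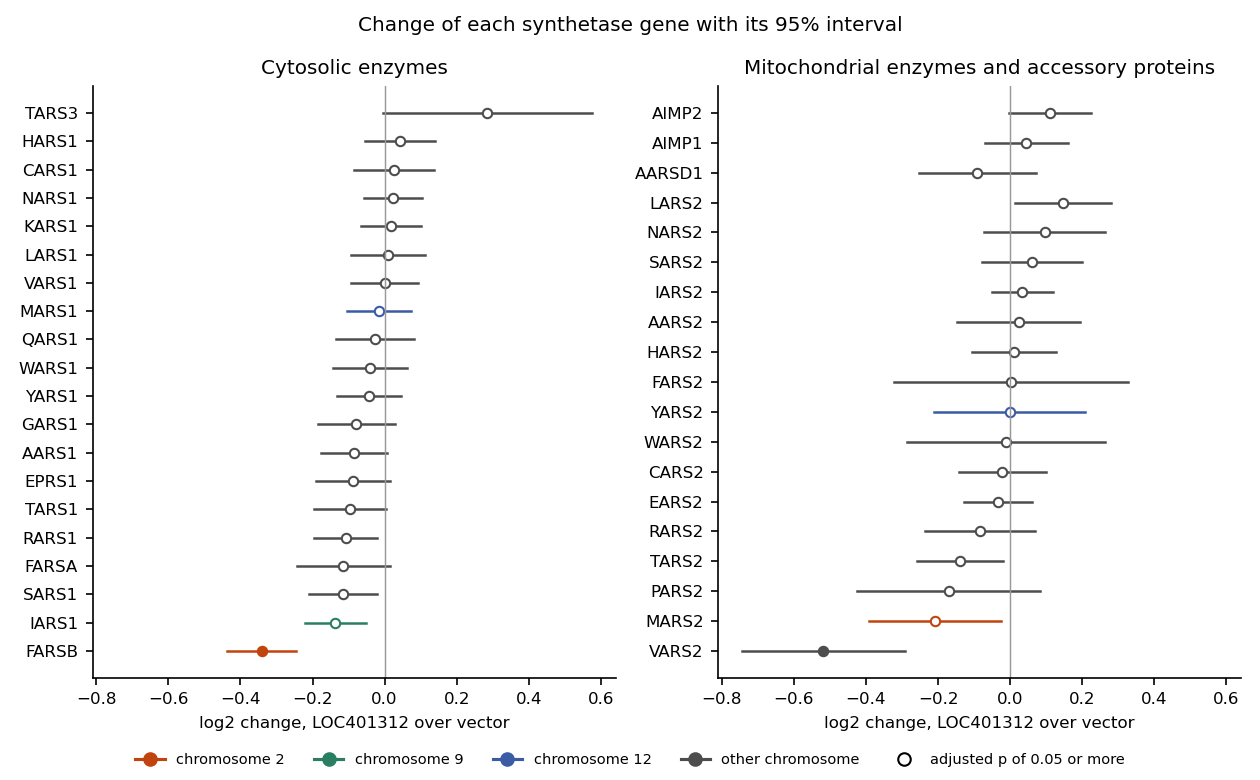
Log2 change of CPM, LOC401312 over vector, for each member with its 95% interval from edgeR (3 libraries per group); filled points have an adjusted p under 0.05 and colours mark chromosomes 2, 9 and 12. FARSB and VARS2 are the filled points, and most other intervals contain 0.

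FARSB and FARSA encode the beta and alpha subunits of cytosolic phenylalanyl-tRNA synthetase, a class II enzyme built from equal numbers of both. FARSB (ENSG00000116120; GRCh38 chr2:222566899-222656092, minus strand) held 100.8, 99.86 and 95.77 CPM in vector and 76.91, 79.70 and 77.37 CPM in LOC401312. The 3 LOC401312 libraries lay close together and well below all vector libraries. The mean fell by 21.1%, from 98.8 ± 2.66 to 78.0 ± 1.49 CPM (SD, n = 3 each), a log2 change of -0.34 (SE 0.04, edgeR adjusted p = 0.00103). By an exact permutation test, two-sided, p was 0.1, which is the least that the 20 arrangements of 3 libraries and 3 libraries can give, here and for VARS2. FARSB passed without each single library in turn (adjusted p up to 0.00997).

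FARSA, on chromosome 19, held 87.45, 102.4 and 95.28 CPM in vector and 89.70, 85.41 and 88.25 CPM in LOC401312. Its groups overlapped because the first vector library was as low as the LOC401312 libraries. Its log2 change of -0.11 (SE 0.06, adjusted p = 0.285) did not pass. The difference between the changes of the 2 subunits was not tested.

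FARSB lies on chromosome 2, where the median of 780 genes was -0.233. MARS2, the mitochondrial methionine enzyme, lies there too, with 17.44, 18.12 and 17.80 CPM in vector and 16.15, 15.89 and 14.14 in LOC401312. All 3 of its LOC401312 libraries were the lower ones, and its log2 change of -0.21 (SE 0.08, adjusted p = 0.162) did not pass. After subtracting chromosome medians library by library, the log2 changes were -0.12 for FARSB (adjusted p = 0.133) and 0.02 for MARS2 (0.943), and no cytosolic enzyme was called. Of the 39 members VARS2 was then the only one called, and it was lower, against 6.13% of all features (3.49% higher and 2.65% lower). Summed, FARSB and MARS2 held 118.2, 118.0 and 113.6 CPM in vector and 93.06, 95.58 and 91.52 in LOC401312, a mean 19.9% lower. The 37 members elsewhere summed to 4066, 4101 and 4014 CPM against 3928, 3980 and 3935, a mean 2.78% lower. Copy number was not measured, so a change in dosage and one in transcription cannot be told apart.

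**Figure D3:**
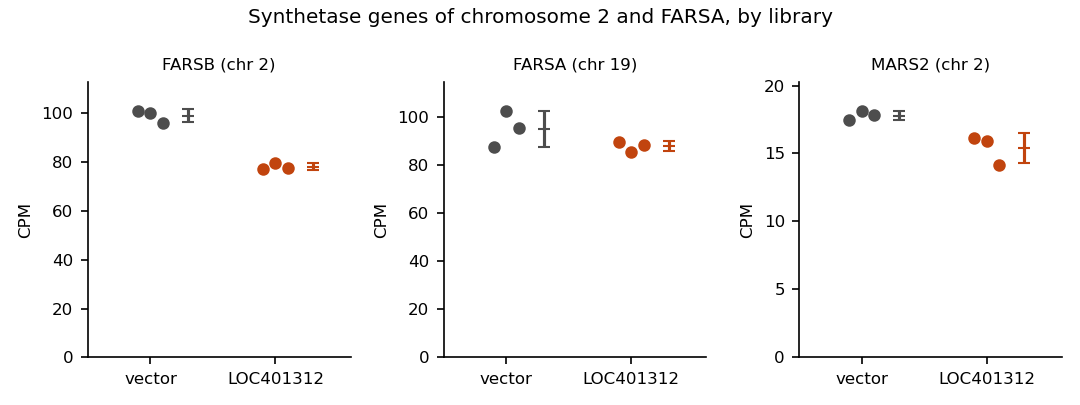
CPM of FARSB, FARSA and MARS2 in each of the 3 vector and 3 LOC401312 libraries; points are libraries and bars the mean and SD. FARSB and MARS2 of chromosome 2 have no overlap between groups, and FARSA of chromosome 19 overlaps.

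VARS2 encodes mitochondrial valyl-tRNA synthetase (ENSG00000137411; chr6:30914205-30926459, plus strand). It held 18.95, 17.25 and 15.90 CPM in vector and 12.23, 13.20 and 10.94 CPM in LOC401312, with every LOC401312 library lower. The mean fell by 30.2%, from 17.4 ± 1.53 to 12.1 ± 1.14 CPM, a log2 change of -0.52 (SE 0.10, edgeR adjusted p = 0.0109), and it passed without each single library (0.0242 to 0.0484). Its log2 change was -0.51 (adjusted p = 0.0156) with chromosome medians removed.

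The fall of VARS2 was mirrored by an entry that shares its strand and its 3′ end. AL669830 (ENSG00000288473; chr6:30908242-30926459) spans VARS2 and starts upstream of it. Its counts were 358, 610 and 727 with vector and 1112, 974 and 1083 with LOC401312. Those of VARS2 were 1407, 1031 and 978 with vector and 863, 901 and 730 with LOC401312. Among the vector libraries too, the one with the most VARS2 counts had the fewest AL669830 counts. AL669830 had a log2 change of 0.79 (SE 0.25, edgeR adjusted p = 0.0889), higher in every LOC401312 library. Summed, the entries held 23.77, 27.45 and 27.72 CPM with vector and 28.00, 27.48 and 27.16 with LOC401312, with overlap. The log2 change of the sum was 0.07 (SE 0.07, 95% interval -0.10 to 0.23, adjusted p = 0.674), so the VARS2 call was lost once both entries were counted together. The sources used here do not give how the authors assigned reads between overlapping entries, and assignment and a change in transcript form cannot be told apart.

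AARSD1, an alanyl-tRNA editing domain protein, has a similar arrangement. It held 27.86, 28.20 and 30.53 CPM in vector and 28.11, 28.27 and 24.93 in LOC401312, with a log2 change of -0.09 (SE 0.07, adjusted p = 0.534). The readthrough entry PTGES3L-AARSD1, which ends at the same base, had 13, 11 and 0 counts with vector, 179, 68 and 113 with LOC401312, and rose by 3.83 (SE 0.71, edgeR adjusted p = 0.00883). With both summed, the log2 change of AARSD1 was -0.01 (adjusted p = 0.972).

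**Figure D4:**
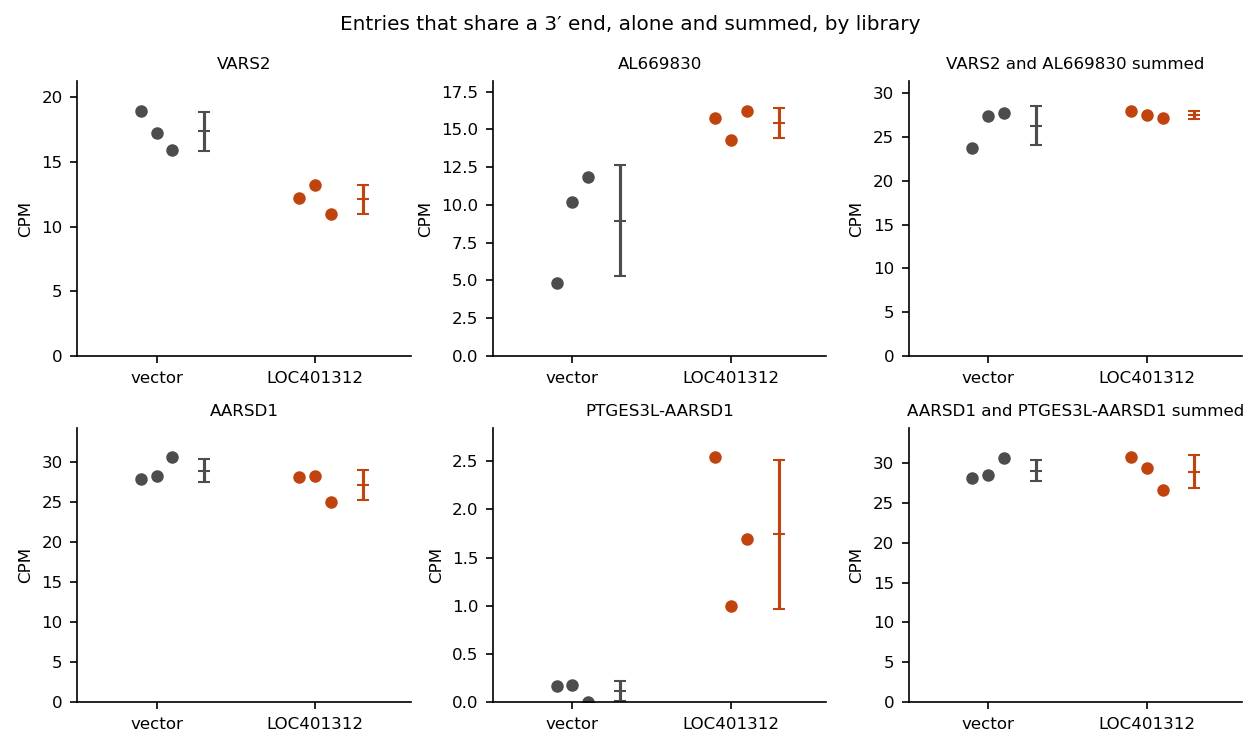
CPM of VARS2 and AL669830 (top) and of AARSD1 and PTGES3L-AARSD1 (bottom), alone and summed, in each of 3 vector and 3 LOC401312 libraries; points are libraries and bars the mean and SD. VARS2 is lower and AL669830 higher in LOC401312, while their sums of 23.77 to 27.72 and 27.16 to 28.00 CPM overlap.

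Another tested entry overlapped 16 of the 39 members, on the opposite strand for 14 and on the same strand for 5. The share of all features with such an overlap was not computed. HARS1 and HARS2, the cytosolic and mitochondrial histidine enzymes, overlap head to head, and their log2 changes were 0.04 (adjusted p = 0.638) and 0.01 (0.940). YARS2 overlaps DNM1L, a gene of mitochondrial fission that rose by 0.17 (edgeR adjusted p = 0.03) on the opposite strand, and the strand setting of the counting is not given. Both lie on chromosome 12, where the median of 642 genes was 0.117. With chromosome medians removed YARS2 had a log2 change of -0.12 (edgeR adjusted p = 0.558).

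Among the cytosolic enzymes that did not pass, IARS1 came nearest. It held 424.9, 420.6 and 398.2 CPM in vector and 371.9, 380.5 and 378.9 in LOC401312, all of the latter lower. Its mean of 414.6 ± 14.3 became 377.1 ± 4.56 CPM, with a log2 change of -0.14 (SE 0.04, edgeR adjusted p = 0.0525). It passed with a filter of at least 1 CPM on the mean (0.0407) and in DESeq2 (0.00528). IARS1 lies on chromosome 9, where the median of 494 genes was -0.086, and its log2 change was -0.05 (adjusted p = 0.4995) with chromosome medians removed.

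SARS1 (serine) had a log2 change of -0.12, FARSA of -0.11, RARS1 (arginine) of -0.11, TARS1 (threonine) of -0.10, and EPRS1, the joined glutamate and proline enzyme, of -0.09. AARS1 (alanine) had -0.08, GARS1 (glycine) -0.08, YARS1 (tyrosine) -0.04, WARS1 (tryptophan) -0.04, QARS1 (glutamine) -0.03 and MARS1 (methionine) -0.02. MARS1 lies on chromosome 12, where the median of 642 genes was 0.117, and with chromosome medians removed it had -0.13 (edgeR adjusted p = 0.0846), the lowest cytosolic value in that setting. VARS1 (valine), LARS1 (leucine), KARS1 (lysine), NARS1 (asparagine), CARS1 (cysteine) and HARS1 (histidine) lay between -0.00 and 0.04. The one cytosolic enzyme far above 0 was TARS3, with 8.55, 9.45 and 10.2 CPM in vector and 12.9, 9.38 and 12.1 in LOC401312. Its groups overlapped through LOC401312 replicate 2, and its log2 change of 0.28 had the widest interval of the cytosolic enzymes (SE 0.13, 95% interval -0.01 to 0.58, adjusted p = 0.231). TARS1, the abundant threonine enzyme, thus lay below 0 and its paralog TARS3 above, and neither passed.

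Among the mitochondrial enzymes that did not pass, LARS2 (leucine) had the highest log2 change. It held 37.61, 43.26 and 39.36 CPM in vector and 44.23, 44.79 and 44.04 in LOC401312. Its log2 change was 0.15 (SE 0.06, edgeR adjusted p = 0.174), and the highest vector library, at 43.26, came close to the LOC401312 libraries.

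PARS2 (proline) had a log2 change of -0.17, TARS2 (threonine) of -0.14, RARS2 (arginine) of -0.08 and EARS2 (glutamate) of -0.03. CARS2 (cysteine, -0.02), WARS2 (tryptophan, -0.01), YARS2 (tyrosine, -0.00), FARS2 (phenylalanine, 0.00), HARS2 (histidine, 0.01), AARS2 (alanine, 0.02) and IARS2 (isoleucine, 0.03) lay near 0. SARS2 (serine) had 0.06 and NARS2 (asparagine) 0.10, and none of these passed. IARS2, the most abundant mitochondrial enzyme per length, held 254.5, 251.6 and 241.4 CPM in vector and 250.7, 257.2 and 257.6 in LOC401312, with overlap.

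The scaffold proteins of the multi-synthetase complex did not pass either. AIMP2 held 49.58, 55.15 and 54.08 CPM in vector and 57.37, 57.83 and 56.16 in LOC401312, all of the latter higher, with a log2 change of 0.11 (SE 0.05, edgeR adjusted p = 0.24). It passed in limma on log2(FPKM + 0.1) at 0.24 (adjusted p = 0.0117), a scale whose overall shift is given above. With each library centred, AIMP2 had 0.12 and did not pass (limma adjusted p = 0.1699). AIMP1 had a log2 change of 0.05 (adjusted p = 0.684), and EEF1E1, which lies outside the name rule, one of -0.19 (0.0678). The 7 cytosolic enzymes of the complex had a median of -0.03 with none called, and the 13 outside it a median of -0.04 with 1 called lower, FARSB. By fold, the 18 class I enzymes had a median of -0.02 with 1 called, and the 17 class II enzymes one of 0.0033 with 1 called.

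For the 37 members that did not pass, 95% intervals from edgeR describe the range the spread between these libraries allows. They lay within 0.3 of 0 on the log2 scale, a 1.23-fold change, for 33 of 37, the exceptions being FARS2, MARS2, PARS2 and TARS3. The median half-width was 0.11, and 31 of the 37 intervals contained 0. The intervals of IARS1, MARS2, RARS1, SARS1 and TARS2 lay below 0 and that of LARS2 above. The uncentred FPKM scale, whose overall shift is given above, moved values by about as much as the half-width. IARS1 had -0.14 in edgeR, -0.01 on log2(FPKM + 0.1) and -0.13 on that scale once each library was centred.

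The 7 cytosolic enzymes with the C/EBP-ATF motif had a median log2 change of -0.08, and none was called. The 9 with a promoter window and no motif had a median of -0.09, with 1 called. ATF4 itself held 260.8, 272.2 and 267.6 CPM in vector and 246.0, 254.8 and 245.0 in LOC401312, all of the latter lower, with a log2 change of -0.10 (SE 0.04, edgeR adjusted p = 0.133). Its activity depends on translation, which RNA counts do not show.

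Other ATF4 targets, which serve serine and asparagine synthesis, transport and stress, were mostly lower where they passed. Of 32 tested, 11 were lower and 2 higher (40.6% called, against 8.72% of all features), with a median of -0.11. The list, like those below, was chosen with earlier results of these data known, so its share called is only a description. MTHFD2, a mitochondrial folate enzyme, held 156.4, 149.5 and 143.1 CPM in vector and 120.6, 122.8 and 118.6 in LOC401312 and fell by 0.31 (edgeR adjusted p = 0.00228). PSAT1, of serine synthesis, fell by 0.27 (adjusted p = 0.00243), from 222.2 ± 5.18 to 184.2 ± 4.49 CPM. The transcription factor ATF5 rose by 0.55 (adjusted p = 0.00159), from 31.3 ± 3.34 to 45.8 ± 1.35 CPM.

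MTHFD2 lies on chromosome 2 and PSAT1 on chromosome 9, and with chromosome medians removed 9 of the list were lower and 1 higher. In that setting MTHFD2 was no longer called, at -0.09 (edgeR adjusted p = 0.285). PSAT1 at -0.19 (0.0227) and ATF5 at 0.55 (0.0013) still passed. Leaving out vector replicate 3, LOC401312 replicate 2 or LOC401312 replicate 3 left 7 lower, and without LOC401312 replicates 2 and 3 together none was called, at a median of -0.13. On log2(FPKM + 0.1) the list had 2 lower and 4 higher with a median of 0.02, and 8 lower and 1 higher once each library was centred. The difference between these targets and the synthetases was not tested.

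**Figure D5:**
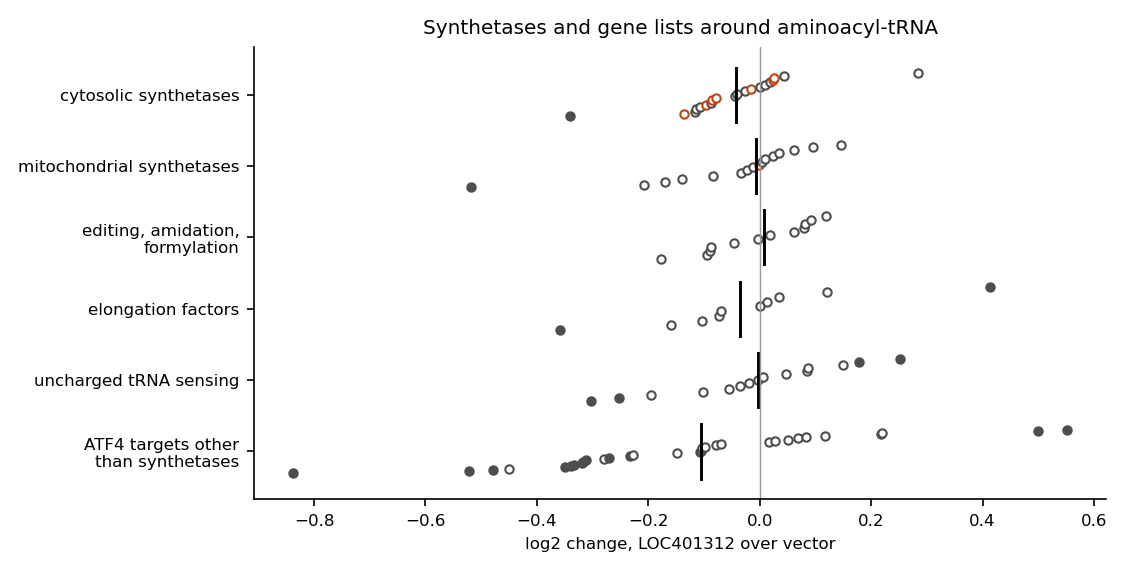
Log2 change of CPM, LOC401312 over vector, for each tested gene of 6 lists; filled points have an edgeR adjusted p under 0.05, black bars are list medians, and orange marks synthetases whose promoter window holds the motif. The synthetase medians of -0.04 and -0.0064 lie near 0, and that of the other ATF4 targets is -0.11.

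Of the 15 genes of uncharged tRNA sensing and the integrated stress response, 4 were called (26.7%, against 8.72% of all features), 2 in each direction. EIF2AK4 itself had a log2 change of 0.01 (adjusted p = 0.969), and its partner GCN1 rose by 0.25 (edgeR adjusted p = 0.00481), from 288.3 ± 7.31 to 343.1 ± 13.6 CPM. Subunits of the exchange factor eIF2B split, with EIF2B1 up by 0.18 (0.0282) and EIF2B4 lower at -0.30 (0.00547). The fourth call, EIF2AK2, a kinase activated by double-stranded RNA and named after its values were seen, was lower at -0.25 (0.0393). GCN1 and EIF2B1 lie on chromosome 12 and EIF2B4 and EIF2AK2 on chromosome 2. None of the 4 passed with chromosome medians removed. The count fell to 1 higher and 1 lower without any one of vector replicates 2 and 3 or LOC401312 replicates 1, 2 and 3, and to 2 higher and 1 lower without vector replicate 1. None was called without LOC401312 replicates 2 and 3 together, and on log2(FPKM + 0.1) 4 were higher and none lower.

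Downstream of the synthetases, 2 of 10 elongation factors, of the cytosol and the mitochondrion, were called (20%, against 8.72% of all features). DESeq2 called 1 higher and 3 lower, and without LOC401312 replicates 2 and 3 edgeR called none. EEF1A2, a form of the carrier EF-1 alpha, held 157.1, 174.2 and 177.0 CPM in vector and 226.4, 230.9 and 219.4 in LOC401312, well apart, and rose by 0.41 (SE 0.05, edgeR adjusted p = 0.00093). It also passed with chromosome medians removed, at 0.39 (adjusted p = 0.000687). EEF1A1, the form of most cells and far more abundant at 7605 ± 144 CPM in vector, had a log2 change of -0.10 (0.0784). EEF1B2, an exchange factor on chromosome 2, fell by 0.36 (0.00296), and its log2 change was -0.13 (0.211) with chromosome medians removed.

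Other lists of tRNA supply and use are read against the same 8.72% of all features. None of the 12 genes of editing, amidation and formylation passed, with MTFMT, the mitochondrial formyltransferase, at -0.18 (edgeR adjusted p = 0.219) and SECISBP2, of selenocysteine insertion, at -0.09 (0.405). Of the 26 genes of tRNA maturation and export, 1 was lower (3.85%), TPRKB at -0.33 (0.0335), on chromosome 2. It was not called without any one of vector replicates 2 and 3 or the LOC401312 libraries. Of the 23 genes of RNA polymerase III and its factors, 4 were called (17.4%). GTF3C2 (-0.28, 0.0025) and GTF3C3 (-0.27, 0.015), both on chromosome 2, were lower. POLR3B on chromosome 12 was higher at 0.41 (0.0268), as was BDP1, named after its values were seen, at 0.23 (0.0293). With chromosome medians removed BDP1 was the only gene of these lists to pass (0.0398), with TPRKB at 0.551, GTF3C2 at 0.4502, GTF3C3 at 0.737 and POLR3B at 0.1095 by adjusted p. Leaving out single libraries gave 0 to 1 polymerase III genes higher and 1 to 3 lower, and without LOC401312 replicates 2 and 3 none was called.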

How the data were processed

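The deposited table holds the authors' raw counts, 1 column for each library, and the authors' FPKM, which adjust for length and library size, per the file headers. The submitters' processing notes list cutadapt 1.9, FastQC and the build GRCh38 (hg38). The sources used here give no aligner, counter, annotation release or strand setting. No column was left unmapped (0).

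Counts were tested with edgeR 4.0.16 (quasi-likelihood, TMM, filterByExpr; run in R 4.3.3) on group alone, with Benjamini-Hochberg adjustment over 19620 features and a threshold of 0.05. CPM uses TMM-adjusted totals. The biological coefficient of variation was 17%. Replicate pairs all differed beyond sampling noise, with a chi-square of 13.96 to 23.15 for each degree of freedom. Alternatives were DESeq2 1.42.0, limma 3.58.1 on log2(FPKM + 0.1), other scalings, filters and pseudocounts, each library left out, the replicate number as a block, and removal of chromosome medians (over genes averaging 4 CPM or more). Summing entries that share a 3′ end was added after seeing the data. Scripts were tested on simulated data.

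Members and lists were chosen with earlier results of these data known. Of the 41 entries that match the rule, 2 are not reported here and enter no count of members. Every other member is named, and of each other list the 3 genes of smallest p past the threshold at most, or 2 if none was past it; EEF1A1, EIF2AK2, EIF2AK4, ATF4, BDP1, DNM1L and the entries summed with members were named besides. Median log2 changes of lists are descriptions, with no test.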

Additional observations from a re-analysis of the deposited data

How the results depend on the processing

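Of 741 values of single members under other settings, 620 kept their direction and their side of the threshold. Another 8 lost a call, 5 gained one and 8 turned. A value counts as turned only where it was called in either setting or its main 95% interval excluded 0. The other 100 changed sign with a main interval that contained 0 and no call in either setting. They include FARSA, at -0.11 in edgeR, 0.01 on log2(FPKM + 0.1) and -0.10 on that scale once each library was centred. In that centred setting no member's value turned, and none gained or lost a call. The values that turned were MARS2 (0.016) with chromosome medians removed, VARS2 (0.067) with overlapping entries summed, and RARS1 (0.0180, 0.0176 and 0.0180) and SARS1 (0.0103, 0.0098 and 0.0103) in limma on FPKM with pseudocounts of 0.1, 1 and 0.01, a scale on which 18 members changed sign.

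Over all features, 811 were called higher and 899 lower in edgeR. The counts higher were 1248 in DESeq2, 1639, 1625 and 1591 on FPKM with pseudocounts of 0.1, 1 and 0.01, 393 to 963 with each library left out, and 84 without LOC401312 replicates 2 and 3. The counts lower were 577 without the count filter, 308, 305 and 301 on FPKM, 439 to 1042 with each library left out, 91 without LOC401312 replicates 2 and 3 and 519 with chromosome medians removed.

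The 1 cytosolic enzyme called lower, FARSB, became 2 in DESeq2 and with a filter of 1 CPM on the mean, where IARS1 joined it, stayed 1 with each library left out, and became 0 on FPKM with pseudocounts of 1 and 0.01, without LOC401312 replicates 2 and 3 and with chromosome medians removed. The 1 mitochondrial enzyme, VARS2, became 0 on uncentred FPKM at each pseudocount and with overlapping entries summed. On centred FPKM both counts stayed 1, with FARSB at a limma adjusted p of 0.0054. The cytosolic median was -0.018 with library totals, -0.033 with no filter, 0.084, 0.079 and 0.084 on FPKM, -0.032 on centred FPKM, -0.049 without LOC401312 replicates 2 and 3 and -0.061 to -0.030 with each library left out. The mitochondrial median was 0.019 with library totals, 0.108, 0.083 and 0.112 on FPKM, and -0.042 to -0.0022 with each library left out. The cause was not tested.

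With the replicate number as a block, 509 features were higher and 579 lower, and no member's call changed (adjusted p = 0.0111 for FARSB and 0.0189 for VARS2). Same-numbered libraries did not deviate together (correlations of -0.0646, -0.0266 and -0.041), and no library correlated best with its own number. Such correlations cannot show whether same-numbered libraries shared a culture or a preparation.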

Other observations

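The 9 pseudogene entries left out by the rule held few counts. PRORSD1P, a relative of a prolyl-tRNA editing gene, had 188, 61 and 120 counts with vector and 100, 97 and 55 with LOC401312, with overlap. AL627389 had 11, 0 and 0 counts with vector and 18, 15 and 0 with LOC401312. KARS1P2 and GARS1P1 held 0 counts in every library. AIMP1P2, KARS1P1, NARS1P2, RARS1P1 and AP003072 held at most 12 counts in any library. The sources used here do not give how reads shared between KARS1, NARS1, RARS1, GARS1 or AIMP1 and their pseudogenes were assigned.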
